A study of Homo sapiens with 10 samples.

Results

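Fibroblast growth factor (FGF) signaling was described in clones of EA.hy926 cells through 9 genes, chosen by name and by their place in the pathway: the ligands *FGF1*, *FGF2* and *FGF5*, the receptors *FGFR1*, *FGFR3* and *FGFR4*, and the Sprouty genes *SPRY1*, *SPRY2* and *SPRY4*. They are 9 of the 27945 gene symbols of the deposited expression table, each read from the RefSeq transcript with the highest mean FPKM (fragments per kilobase of transcript, scaled to the depth of each library). All 9 were present in the table, and 7 of them were among the 13333 genes tested. *FGFR3* and *FGFR4* did not reach the filter, which asked for a product of FPKM and length in kb of at least 1 in at least 2 libraries. *FGF2*, *FGF5*, *FGFR1*, *SPRY2* and *SPRY4* reached that value in all 10 libraries. *FGF1* reached it only in the 2 *VEGFA-LNC* control libraries and *SPRY1* only in the 3 *VEGFA-LNC* deletion clones, so that each entered the test through the group in which it was high and had to differ there.

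EA.hy926 is an established human line made by fusing umbilical vein endothelial cells with a derivative of the A549 lung carcinoma line. RNA-Seq of rRNA-depleted total RNA compared clones in which CRISPR/Cas9 had removed the promoter of 1 of 2 long noncoding RNAs, *VEGFA-LNC* or *VEGFC-LNC*, with controls, in order to look for effects beyond the neighboring *VEGF* gene. The groups were 3 homozygous *VEGFA-LNC* deletion clones, 3 homozygous *VEGFC-LNC* deletion clones and 2 control libraries for each deletion, grown in the same serum-containing medium. Controls had been given the guide RNAs without Cas9 and had passed the same clonal selection, so that no group holds unselected cells, and each deletion library is a single clone. No source used here says whether the 2 control libraries of a set came from separate clones.

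FGF ligands bind receptor tyrosine kinases at the cell surface together with heparan sulfate, and the receptors pass the signal through adaptor proteins to RAS and the ERK kinases. Sprouty proteins are made in response to this signal and restrain it, so that they act as feedback inhibitors. In endothelial cells the pathway is known for its part in proliferation, survival and the growth of new vessels, where *FGF2* and *FGFR1* are its best studied members.

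The libraries held between 6743971 and 24197622 reads, as recovered from the FPKM values, and *VEGFC-LNC* clone 3 was the shallowest. Of 12 endothelial markers 11 were tested, *CDH5* was at 56.6 FPKM or higher in every library, and *CLDN5* was at 0 in all 10. Some tested ones were low, with medians over the libraries of 0.1465 FPKM for *KDR*, 0.8605 for *EMCN* and 1.121 for *VWF*. Of 11 lung epithelial markers 4 were tested. The keratin genes *KRT8* (95.2 to 348.5 FPKM) and *KRT18* (101.3 to 435.6 FPKM) were high in every library, and *NKX2-1* was at 0 in all 10. The 2 control libraries of a set were far more alike than clones of a deletion: the median SD of log2 values was 0.065 and 0.064 in the *VEGFA-LNC* and *VEGFC-LNC* controls against 0.287 and 0.249 in the clones. Counted in reads, the mean chi-square per gene between the libraries of a control pair was 3.76 and 1.54, so that the pairs did differ beyond sampling noise, and between clones of the same deletion it was 18.3 to 138. When each control pair was averaged to 1 sample, none of the calls described below remained, in any of the 4 comparisons.

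*FGF1* and *SPRY4* both lie on the minus strand of chromosome 5 of hg19, with 267123 bases between the transcript of *SPRY4* (chr5:141689992-141704620) and that of *FGF1* (chr5:141971743-142000920). *FGF2* (chr4:123747986-123819391) and *SPRY1* (chr4:124319541-124324915) are both on the plus strand of chromosome 4, 500150 bases apart. *FGF5* lies elsewhere on chromosome 4 (chr4:81187742-81212171, plus strand), *FGFR3* near its end (chr4:1795039-1810599, plus strand), *FGFR4* on chromosome 5 (chr5:176516551-176525143, plus strand) and *SPRY2* on chromosome 13 (chr13:80910111-80915250, minus strand).

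The sequences just upstream of *FGF1*, *FGF5*, *SPRY1* and *SPRY2* are shown because these genes carried the largest differences described here, or passed the threshold. Each is the stretch from 220 to 21 bases before the outermost annotated start of the gene, written 5′ to 3′ on the strand of the gene and read from GRCh37 (hg19). Capitals mark a GC box (GGGCGG, the motif of SP1) or an ETS core (CCGGAA) on either strand. The windows are chr5:142077656-142077855 (minus strand) for *FGF1*, chr4:81187522-81187721 (plus) for *FGF5*, chr4:124317730-124317929 (plus) for *SPRY1* and chr13:80915271-80915470 (minus) for *SPRY2*. None of them overlaps an annotated transcript. For *FGF5* and *SPRY2* the outermost start is that of the transcript whose values are used. For *FGF1* and *SPRY1* it is not, at position 142077635 against 142000920 and at 124317950 against 124319541. Which start was in use cannot be told from these values.
FGF1: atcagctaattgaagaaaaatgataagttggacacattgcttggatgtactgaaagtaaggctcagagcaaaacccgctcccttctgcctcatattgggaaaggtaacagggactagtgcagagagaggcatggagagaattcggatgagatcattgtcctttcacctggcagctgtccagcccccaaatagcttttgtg
FGF5: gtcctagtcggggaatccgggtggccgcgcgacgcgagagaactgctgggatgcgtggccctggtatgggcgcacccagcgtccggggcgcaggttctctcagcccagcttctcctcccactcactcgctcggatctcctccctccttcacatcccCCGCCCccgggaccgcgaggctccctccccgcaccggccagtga
SPRY1: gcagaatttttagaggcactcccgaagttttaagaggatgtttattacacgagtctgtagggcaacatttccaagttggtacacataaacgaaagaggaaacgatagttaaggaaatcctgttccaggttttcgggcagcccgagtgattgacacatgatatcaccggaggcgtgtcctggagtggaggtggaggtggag
SPRY2: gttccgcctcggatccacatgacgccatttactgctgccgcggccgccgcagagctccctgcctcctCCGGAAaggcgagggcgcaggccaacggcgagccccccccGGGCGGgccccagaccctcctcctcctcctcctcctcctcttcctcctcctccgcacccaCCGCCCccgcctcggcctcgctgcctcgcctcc

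The 4 windows fall into a GC-rich pair and a pair of lower GC content. The latter are those of *FGF1* and *SPRY1*, which do not lie at the start of the transcript used. The windows of *SPRY2* and *FGF5* were 74.0% and 70.5% GC, against a median of 62.5% over the 13333 tested genes, and those of *SPRY1* and *FGF1* were 47.0% and 46.0%. *SPRY2* held 2 GC boxes and 1 ETS core, *FGF5* held 1 GC box, and *FGF1* and *SPRY1* held neither. Of all windows 52.4% held a GC box and 15.4% an ETS core. The AP-1 motif TGANTCA (3.32% of all windows) and the E-box CACGTG (6.11%) were in none of the 4. No binding was measured, and a match describes letters only.

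In the *VEGFA-LNC* control libraries *SPRY2* was the most abundant of the 9 mRNAs (20.6 FPKM ± 0.0636, SD, n = 2), followed by *FGF5* (19.5 FPKM), *FGF2* (16.7 FPKM), *FGFR1* (13.7 FPKM) and *SPRY4* (6.78 FPKM), each with a range apart from the next. *FGF1* (0.882 FPKM), *FGFR4* (0.178 FPKM) and *SPRY1* (0.144 FPKM) were far below, with the last pair overlapping. In the *VEGFC-LNC* controls the order began with *FGFR1* (11.4 FPKM) and *FGF5* (10.9 FPKM), whose ranges overlapped, and *SPRY2* (7.96 FPKM) came after *FGF2* (9.24 FPKM). In both sets of clones *FGF5* and *SPRY2* led with overlapping ranges. FPKM values are per length of transcript, so these levels can be compared between genes.

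**Figure D1:**
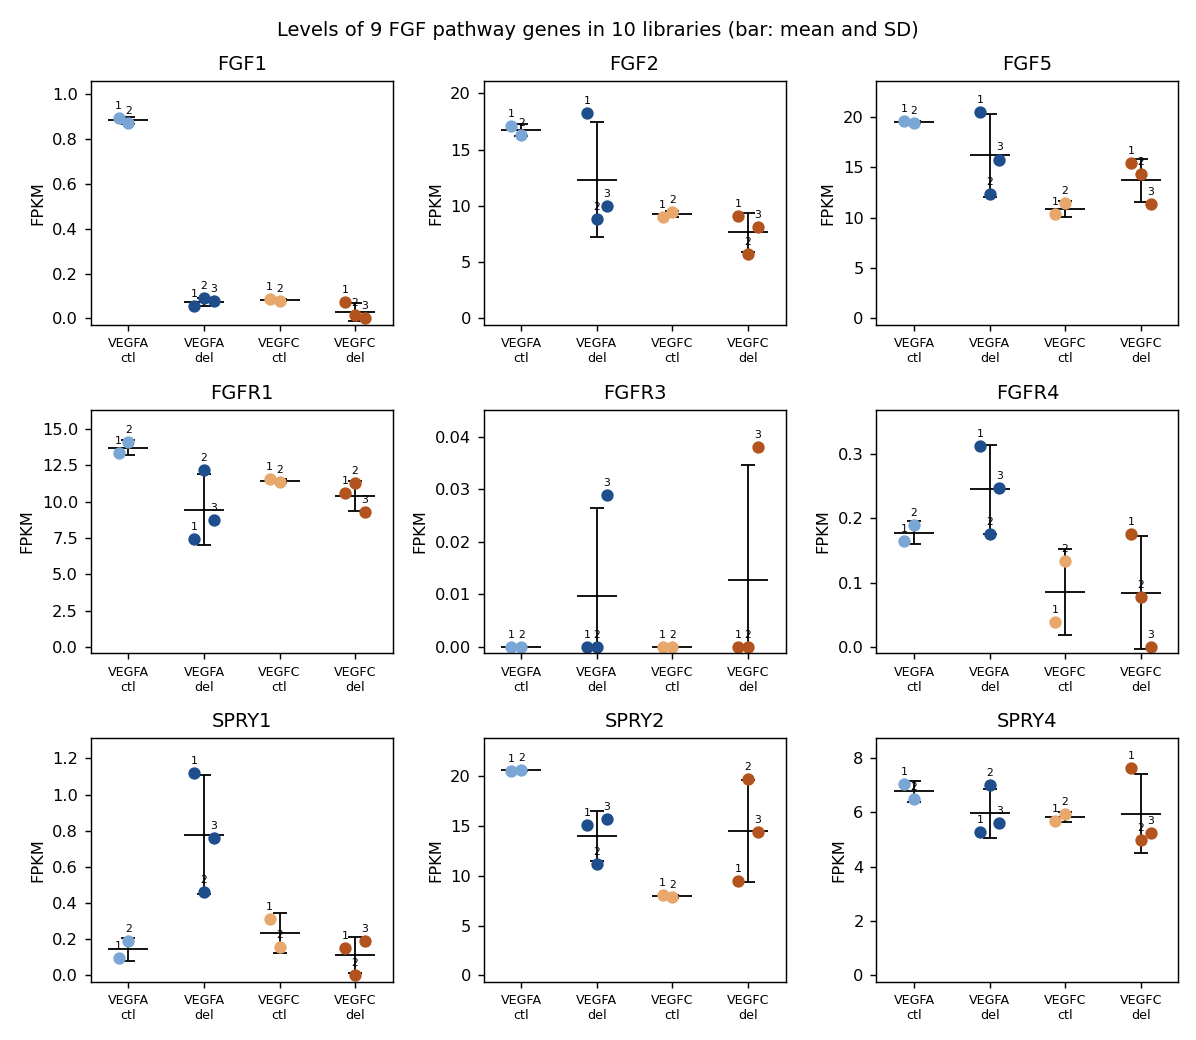
FPKM of the 9 genes (linear axes, 1 panel per gene) in the 4 groups, with 1 point per library numbered by replicate, and bars for the mean and SD of each group (n = 2 controls or 3 clones). *FGF1* is at 0.87 FPKM or higher in both *VEGFA-LNC* controls and at 0.089 or lower in the other 8 libraries, *SPRY1* is highest in the 3 *VEGFA-LNC* clones, and *SPRY2* is lowest in the *VEGFC-LNC* controls.

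Upon *VEGFA-LNC* deletion, *FGF1* was lower in all 3 clones than in both of their controls and was the only 1 of the 7 tested genes to pass the threshold (an FDR below 0.05 together with a 1.5-fold or larger change in limma's two-sided test, adjusted over all 13333 genes). The background for this count is 2.75% of all tested genes, 2.02% called lower and 0.735% called higher. *FGF1* had passed the filter only through these controls. Of the 5 genes that reached the filter value in every library 0 were called, and all 5 had a lower log2 mean in the clones, with a median log2 FC of -0.51 against -0.06 over all tested genes. The groups did not overlap for 4 genes, *SPRY1* above its controls and *FGF1*, *FGFR1* and *SPRY2* below, where the same held for 39.0% of all tested genes, 15.3% above and 23.7% below. *FGF1* and *SPRY1* both stand in the study's own lists of the most changed genes in these libraries, so their directions here are not independent evidence.

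*FGF1*, the acidic FGF that binds all FGF receptors, was at 0.894 and 0.870 FPKM in the *VEGFA-LNC* controls and at 0.055, 0.089 and 0.078 FPKM in the clones. The 2 controls rested on 57 and 72 reads and the clones on 3 to 6 reads, so that the gene was near the limit of detection in every clone. The means were 0.882 FPKM ± 0.0170 (SD, n = 2) and 0.0740 FPKM ± 0.0174 (SD, n = 3), an 11.9-fold difference. On the log2(FPKM + 0.1) scale, which understates changes of low values, the log2 FC was -2.50 ± 0.30 (SE; FDR = 0.00785, limma), and each clone deviated by -2.66, -2.38 and -2.46. Pooled over libraries, 14 reads in the clones against 129 in the controls give an 11.7-fold lower rate, with an exact 95% interval of 6.72 to 22 that covers counting error only. The call was lost when *VEGFA-LNC* control 1 (FDR = 0.164) or control 2 (FDR = 0.163) was left out, and with only these 2 groups in the fit (FDR = 0.0551), while the log2 FC stayed between -2.56 and -2.42 without any 1 library.

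The *VEGFC-LNC* controls held as little *FGF1* as the *VEGFA-LNC* clones, at 0.086 and 0.079 FPKM (3 and 7 reads). The rate of reads in the *VEGFA-LNC* clones was 0.930 times that in the *VEGFC-LNC* controls, with an exact 95% interval of 0.384 to 2.34 that again covers counting error only. Set against all 4 controls together, the *VEGFA-LNC* clones had a log2 FC of -1.29 for *FGF1*, which did not pass the threshold (FDR = 0.422). Of the 10 libraries, the 2 *VEGFA-LNC* controls alone had *FGF1* above 0.089 FPKM.

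*FGF2*, the basic FGF that acts on endothelial cells through *FGFR1*, was at 17.1 and 16.3 FPKM in the *VEGFA-LNC* controls and at 18.2, 8.79 and 9.98 FPKM in the clones. Clone 1 was above both controls and the other 2 clones were far below them, so the groups overlapped. The log2 FC was -0.51 ± 0.30 (FDR = 0.397). Without clone 1 it was -0.83 and passed the threshold (FDR = 0.0342). *FGF5*, a secreted ligand, was likewise highest in clone 1 and lowest in clone 2, with 19.6 and 19.4 FPKM in the controls and 20.5, 12.3 and 15.8 FPKM in clones 1 to 3. Its log2 FC was -0.30 ± 0.22 (FDR = 0.497).

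*FGFR1*, the main FGF receptor of endothelial cells (chr8:38268656-38325363, minus strand), was at 13.4 and 14.1 FPKM in the controls of *VEGFA-LNC* and at 7.42, 12.2 and 8.76 FPKM in the clones. All 3 clones were below both controls, clone 2 by the least. The log2 FC was -0.56 ± 0.20, with an unadjusted p of 0.0198 and an FDR of 0.168 in limma, so the difference did not pass the threshold. *FGFR4* was at 0.165 and 0.190 FPKM (8 and 12 reads) in the controls and at 0.313, 0.175 and 0.247 FPKM (9 to 13 reads) in the clones, with overlapping groups. Pooled, its 34 reads in the clones against 20 in the controls give a rate 1.34 times as high, with an exact 95% interval of 0.750 to 2.46. *FGFR3* had no read in either control or in clones 1 and 2, and 2 reads in clone 3 (0.029 FPKM). A count of 0 allows up to 3 reads, or 0.0338 to 0.0513 FPKM in those 4 libraries.

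*SPRY1*, a feedback inhibitor of receptor tyrosine kinases, was at 0.098 and 0.189 FPKM (4 and 10 reads) in the *VEGFA-LNC* controls and at 1.117, 0.462 and 0.759 FPKM (39, 20 and 31 reads) in clones 1, 2 and 3. Every clone was above both controls, clone 1 the most and clone 2 the least. The means were 0.144 FPKM ± 0.0644 (SD, n = 2) and 0.779 FPKM ± 0.328 (SD, n = 3), a 5.43-fold difference. The log2 FC of 1.81 ± 0.52 did not pass the threshold (unadjusted p = 0.00740, FDR = 0.104, limma), although the gene had passed the filter only through these clones. In no setting tried was it called, with FDRs from 0.0624 to 0.784. The paper, which used a count test, does name *SPRY1* among its upregulated genes upon this deletion. Counted as pooled reads, 90 against 14, the rate was 5.07-fold higher, with an exact 95% interval of 2.87 to 9.64.

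*SPRY2*, the Sprouty gene with the highest level here, was at 20.6 and 20.7 FPKM in the *VEGFA-LNC* controls and at 15.1, 11.2 and 15.7 FPKM in the clones. All clones lay below the controls, with a log2 FC of -0.57 ± 0.28 (FDR = 0.297). *SPRY4* was at 7.05 and 6.50 FPKM in the controls and at 5.27, 6.996 and 5.62 FPKM in the clones, and clone 2 lay between the controls. Its log2 FC was -0.19 ± 0.21 (FDR = 0.667), with a 95% interval of -0.66 to 0.28. Among the 3 Sprouty genes the mean was higher in the clones for *SPRY1* and lower for *SPRY2* and *SPRY4*, and none of the 3 passed the threshold.

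Upon *VEGFC-LNC* deletion, 0 of the 7 tested genes passed the threshold in limma, where 0.473% of all tested genes did (0.15% higher and 0.323% lower). Of the 7, 1 (*SPRY2*) had an unadjusted p under 0.05, 14.3% against 18.8% of all tested genes. The alternative fit with voom on recovered reads also called 0. Of the 5 genes that reached the filter value in every library, 3 had a higher and 2 a lower log2 mean, with a median log2 FC of 0.01 against -0.09 over all tested genes. The groups did not overlap for 3 genes, *SPRY2* above the controls and *FGF1* and *FGFR1* below, where the same held for 47.8% of all tested genes, 17.2% above and 30.6% below. The summed level of the 11 lung epithelial markers was 652 to 659 FPKM in the controls and 198 to 366 FPKM in the clones. In the *VEGFA-LNC* set it was 573.3 to 580.5 FPKM in the controls and 256 to 785.9 FPKM in the clones. *KRT8* and *KRT18* made up nearly all of this sum, since no other marker of the list exceeded 7.05 FPKM (*AKR1B10*) in any library. The summed level of the 12 endothelial markers was 769.7 to 789.2 FPKM in the *VEGFC-LNC* controls and 717.3 to 1339 FPKM in their clones. The part of these markers in the results was not tested.

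*SPRY2* was at 8.07 and 7.84 FPKM in the *VEGFC-LNC* controls and at 9.45, 19.7 and 14.4 FPKM in clones 1, 2 and 3. All clones were above both controls, clone 1 only slightly and clone 2 the most. The means were 7.96 FPKM ± 0.161 (SD, n = 2) and 14.5 FPKM ± 5.12 (SD, n = 3), and the log2 FC was 0.80 ± 0.28 (unadjusted p = 0.0186, FDR = 0.197). *SPRY4* was at 5.70 and 5.95 FPKM in the controls and at 7.65, 4.996 and 5.23 FPKM in the clones, which lay on both sides of them (log2 FC 0.01 ± 0.21, FDR = 0.990). *SPRY1* was at 0.314 and 0.158 FPKM in the controls and at 0.152, 0 and 0.189 FPKM in the clones, on 0 to 9 reads per library (log2 FC -0.75 ± 0.52, FDR = 0.441).

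Of the ligands, *FGF5* was at 10.3 and 11.5 FPKM in the *VEGFC-LNC* controls and at 15.5, 14.3 and 11.3 FPKM in the clones. Clones 1 and 2 were above both controls and clone 3 was between them (log2 FC 0.32 ± 0.22, FDR = 0.433). *FGF2* was at 9.05 and 9.44 FPKM in the controls and at 9.14, 5.75 and 8.12 FPKM in the clones, with clone 1 between the controls and the others below (log2 FC -0.29 ± 0.30, FDR = 0.609). *FGF1* was at 0.073, 0.015 and 0 FPKM in the clones, on 6, 1 and 0 reads, and its pooled rate was 0.495 times that of the controls, with an exact 95% interval of 0.160 to 1.44. In clone 3, the shallowest library, a count of 0 allows up to 0.121 FPKM, which is above the level of both controls, so that no difference in *FGF1* was detectable there.

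*FGFR1* was at 11.5 and 11.3 FPKM in the *VEGFC-LNC* controls and at 10.6, 11.3 and 9.28 FPKM in the clones. All 3 clones were below the controls, clone 2 by a margin too small to show after rounding, with a log2 FC of -0.14 ± 0.20 (FDR = 0.713) and a 95% interval of -0.59 to 0.31. *FGFR4* was at 0.038 and 0.133 FPKM in the controls and at 0.176, 0.078 and 0 FPKM in the clones, with a pooled rate 1.06 times that of the controls (exact 95% interval 0.446 to 2.64). *FGFR3* had 1 read in clone 3 and none in the other 4 libraries of this set. In bulk RNA a lower level can come from fewer cells that use a gene or from less RNA per cell, and these cannot be told apart here.

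**Figure D2:**
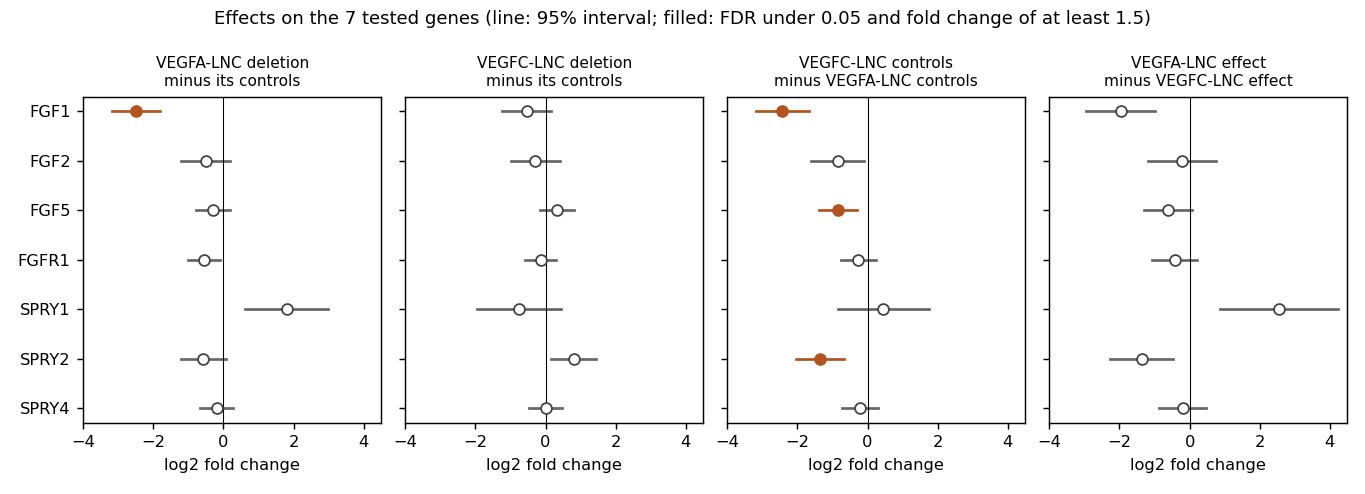
Log2 FC on the log2(FPKM + 0.1) scale of the 7 tested genes in the 4 comparisons, with 95% intervals from limma (points past the threshold are filled). *FGF1* is filled upon *VEGFA-LNC* deletion, *FGF1*, *FGF5* and *SPRY2* are filled between the control sets, and no point is filled upon *VEGFC-LNC* deletion or for the difference between the deletions.

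The 2 control sets, which differ in the guides they received, were themselves compared, since each deletion is read against its own set. This comparison shares the *VEGFA-LNC* controls with the *VEGFA-LNC* deletion and the *VEGFC-LNC* controls with the *VEGFC-LNC* deletion, so its values are not independent of those above. The *VEGFC-LNC* controls had less *FGF1*, *FGF5* and *SPRY2* than the *VEGFA-LNC* controls, and these 3 of the 7 tested genes passed the threshold, all lower. In this comparison 12.7% of all tested genes passed it, 9.76% lower and 2.92% higher. The groups did not overlap for 6 of the 7 genes, all lower, where the same held for 82.9% of all tested genes, 33.7% higher and 49.2% lower. Of the 5 genes that reached the filter value in every library 2 were called, and the median log2 FC of the 5 was -0.83 against -0.11 over all tested genes. The summed level of 6 fibroblast and mural markers was 20.3 to 20.5 FPKM in the *VEGFA-LNC* and 0.880 to 1.117 FPKM in the *VEGFC-LNC* controls. Of these markers, 4 were tested, *DCN* was at 0 in 9 libraries, and *ACTA2* (0.659 to 59.8 FPKM over the 10 libraries) made up nearly all of the sum, since none of the other 5 exceeded 0.357 FPKM in any library. The sum of 5 leukocyte markers, of which *LYZ* alone was tested, was 3.42 to 3.93 FPKM and 0.419 to 0.711 FPKM. The part of these genes in the result was not tested.

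*SPRY2* fell 2.59-fold, from a mean of 20.6 FPKM to 7.96 FPKM (log2 FC -1.36 ± 0.30, FDR = 0.0244). *FGF5* fell 1.79-fold, from 19.5 to 10.9 FPKM (log2 FC -0.83 ± 0.24, FDR = 0.0499, just inside the threshold). *FGF1* fell 10.7-fold, from 0.882 to 0.0825 FPKM (log2 FC -2.43 ± 0.33, FDR = 0.00572), and had passed the filter only through the higher of these 2 groups. *FGF2* was 1.81-fold lower, 9.24 against 16.7 FPKM, and did not pass (log2 FC -0.85 ± 0.33, FDR = 0.122), although it did without *VEGFA-LNC* clone 1 (FDR = 0.0191) and with only the control sets in the fit (FDR = 0.00012). *FGFR1* (log2 FC -0.26), *SPRY4* (-0.21) and *SPRY1* (0.45) did not pass either. Leaving out any 1 of the 4 control libraries brought the number of called genes among the 7 to 0. *SPRY2* also lost its call without the filter (FDR = 0.0563). *FGF5* lost its call in 11 of 18 alternatives, among them no filter (FDR = 0.0963), scaling by the median of ratios (0.0690), and the fits without *VEGFA-LNC* clone 3 (0.0722), *VEGFC-LNC* clone 1 (0.0543) or *VEGFC-LNC* clone 2 (0.0685).

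For *SPRY2*, the levels of all 6 deletion clones lay between those of the 2 control sets. *SPRY2* was at 11.2 to 15.7 FPKM in the *VEGFA-LNC* clones and at 9.45 to 19.7 FPKM in the *VEGFC-LNC* clones, while the control sets were at 20.6 to 20.7 and 7.84 to 8.07 FPKM. All 3 *VEGFC-LNC* clones had *FGF5* between 11.3 and 15.5 FPKM. When each deletion was set against all 4 controls, the log2 FC of *SPRY2* upon *VEGFA-LNC* deletion changed sign to 0.11 and that upon *VEGFC-LNC* deletion shrank from 0.80 to 0.12. For *FGF5* both signs changed, to 0.12 upon *VEGFA-LNC* deletion and -0.10 upon *VEGFC-LNC* deletion.

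The effects of the 2 deletions were then compared with each other. The difference passed the threshold for 0 of the 7 genes in limma, against 1.46% of all tested genes (0.593% above and 0.863% below 0, in all 194, or 86 with the replicate number as a block). An unadjusted p under 0.05 in limma was found for 3 of the 7 (*FGF1*, *SPRY1* and *SPRY2*), 42.9% against 18.5% of all tested genes. *FGF1* and *SPRY1* had passed the filter only through a group in which they were high, so nothing is read from this share. By voom 0 were called. For *SPRY2*, all *VEGFA-LNC* clones were below their controls and all *VEGFC-LNC* clones above theirs, and the effects differed by -1.37 ± 0.39 on the log2 scale (unadjusted p = 0.00706, FDR = 0.126). The effects differed by -1.96 ± 0.43 for *FGF1* (FDR = 0.0646) and by 2.56 ± 0.74 for *SPRY1* (FDR = 0.127). *SPRY2* passed without *VEGFC-LNC* clone 1 (-1.64, FDR = 0.0436) and *FGF1* without *VEGFA-LNC* clone 1 (-1.88, FDR = 0.0490).

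Clone 1 of the *VEGFA-LNC* deletion stood apart from clones 2 and 3. It deviated from the control mean by 0.12 for *FGF2* and 0.07 for *FGF5* on the log2 scale, where clone 2 deviated by -0.92 and -0.66 and clone 3 by -0.74 and -0.30. It also had the lowest *FGFR1* and the highest *SPRY1* of the 3. Over all genes, the chi-square per gene between clone 1 and the others averaged 138 and 90.4, against 25.9 between clones 2 and 3. Clone 1 of the *VEGFC-LNC* deletion stood apart too, with 55.9 and 32.2 against 18.3 between its clones 2 and 3. The medians per gene were far lower, at 7.62 and 4.95 against 2.6. This chi-square grows with depth, and *VEGFC-LNC* clone 3 was the shallowest library, so the 2 sets of clones cannot be ranked by it. Without *VEGFA-LNC* clone 1, 1732 genes were called upon *VEGFA-LNC* deletion in place of 367, and 2 of the 7 (*FGF1* and *FGF2*) in place of 1.

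Each symbol has several transcripts in the table, 27 for *FGF1*, 13 for *FGFR1* and 2 to 6 for the others, and they share exons and therefore reads. The 27 *FGF1* transcripts held 54 to 57 reads in *VEGFA-LNC* control 1 and 0 in *VEGFC-LNC* clone 3. Their log2 FC ranged from -2.60 to -2.40 upon *VEGFA-LNC* deletion, and that of the 4 *SPRY1* transcripts from 1.76 to 1.83. For *FGFR1*, the 13 transcripts ranged from -0.62 to -0.54. The values do not tell which of the 5 annotated start sites of *FGF1* was in use.

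The genes were set beside their neighbors on the chromosome. Of all tested genes 2.75% were called upon *VEGFA-LNC* deletion, 0.473% upon *VEGFC-LNC* deletion and 12.7% between the control sets, so few calls are due among a few neighbors. Of 14 tested genes within 1 Mb of *FGF1*, 0 passed the threshold in limma upon either deletion, and *SPRY4* was among them. Between the control sets 1 of the 14 was called, *RNF14*, a ubiquitin ligase gene 601887 bases from *FGF1*, which was 2.29-fold lower in the *VEGFC-LNC* controls (log2 FC -1.18, FDR = 0.00919). *RNF14* and *FGF1* were also the called genes among the 37 tested within 1 Mb of *SPRY4*, *FGF1* upon *VEGFA-LNC* deletion and both between the control sets. Around *FGF2*, 0 of 6 tested genes were called in any of these 3 comparisons, around *SPRY1* 0 of 4, around *FGF5* 0 of 3 and around *SPRY2* 0 of 2. *NUDT6* is transcribed antisense to *FGF2* and overlaps it by 5593 bases, so that their reads can be told apart only by strand, and how strand was used in the table is not given in the sources used here.

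*NUDT6* was at 1.69 FPKM ± 0.214 in the *VEGFA-LNC* controls, 1.49 ± 0.176 in their clones, 1.07 ± 0.392 in the *VEGFC-LNC* controls and 1.09 ± 0.0970 in their clones. It was below *FGF2* in every group and did not pass the threshold in any comparison (log2 FC -0.17, 0.06 and -0.65). *SPATA5*, which lies between *FGF2* and *SPRY1* and was picked after its values were seen, was at 3.70 FPKM in the *VEGFA-LNC* controls and at 2.01 to 6.67 FPKM in their clones. It was at 7.23 FPKM in the *VEGFC-LNC* controls and 3.24 FPKM in their clones (log2 FC -1.17, FDR = 0.231, and 0.0308 without *VEGFA-LNC* clone 1). It was highest in the *VEGFC-LNC* controls, where *FGF2* was at 9.24 FPKM and *SPRY1* at 0.236 FPKM.

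**Figure D3:**
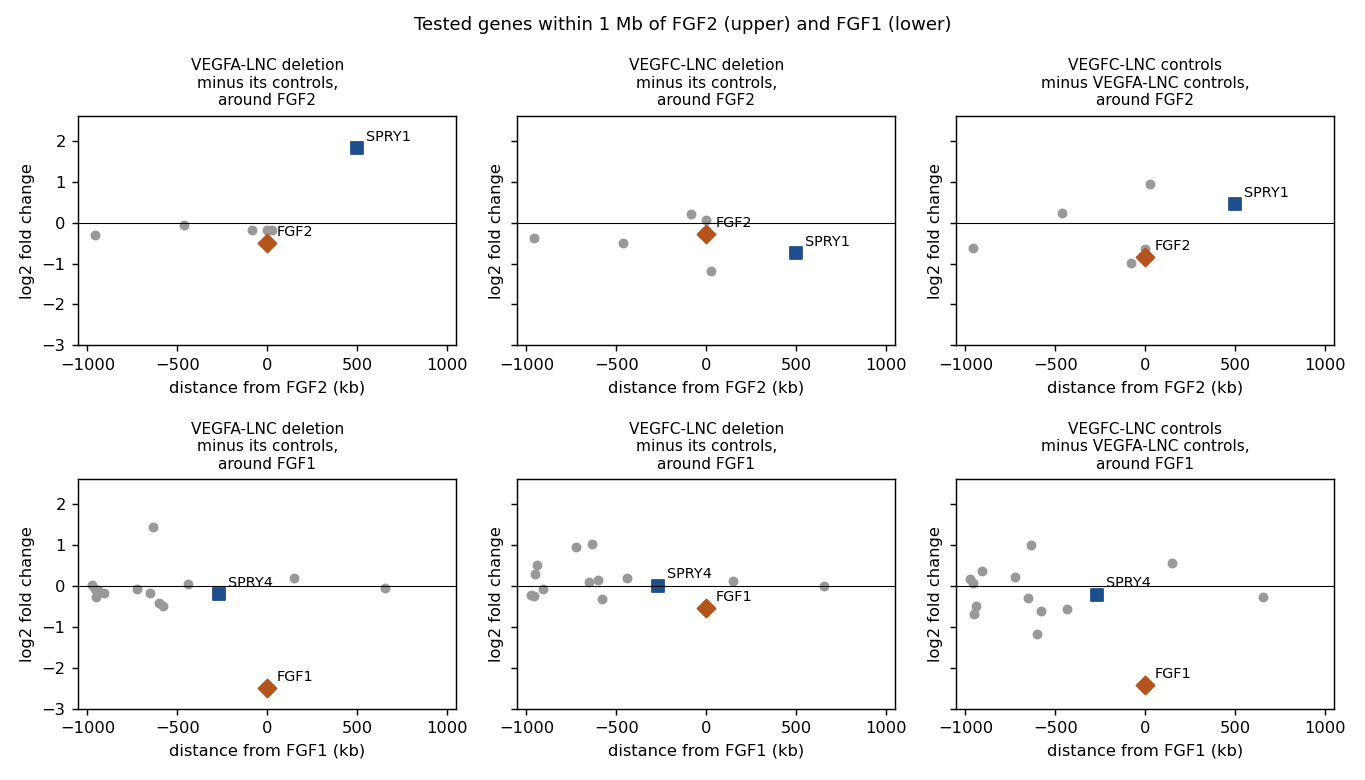
Log2 FC of all tested genes within 1 Mb of *FGF2* (upper panels) and *FGF1* (lower panels) in 3 comparisons, by distance from the gene in kb along the chromosome, with the gene itself as a diamond, *SPRY1* or *SPRY4* as a square and other genes as grey points. *FGF1* is at -2.50 upon *VEGFA-LNC* deletion while *SPRY4* beside it is at -0.19, and *SPRY1* is at 1.81 while *FGF2* is at -0.51.

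Between the control sets, where 12.7% of all tested genes were called and 9.76% called lower, 4 of 19 tested neighbors of *FGFR1* were called, all lower: *BRF2* (log2 FC -1.23), *LETM2* (-1.48), *LSM1* (-0.71) and *TM2D2* (-0.81). *FGFR1* itself was at -0.26 there. Near *FGFR4*, 4 of 27 were called, all lower: *B4GALT7* (-0.93), *CLTB* (-0.88), *TMED9* (-0.69) and *KIAA1191* (-0.65). Near *FGFR3*, 1 of 27 was called, *NSD2*, a histone methyltransferase gene (1.31), and *FGFR3* had no read in the 4 controls. Within 1 Mb of the receptors 0 genes were called upon either deletion, against 2.75% of all tested genes for *VEGFA-LNC* and 0.473% for *VEGFC-LNC*. Each of these 9 neighbors, and *RNF14*, lost its call without any 1 of the 4 controls, and *KIAA1191* and *NSD2* also without *VEGFC-LNC* clone 2 (FDR = 0.0507 and 0.0510).

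The other genes of the pathway were followed in 9 lists with 84 genes in all, of which 53 were tested. None of the 53 passed the threshold upon *VEGFA-LNC* deletion, where 2.75% of all tested genes did, and 0 were called by voom. An unadjusted p under 0.05 in limma was found for 13 of them, 24.5% against 19.8% of all tested genes. Upon *VEGFC-LNC* deletion 0 passed, in limma or by voom, and 5 had such a p, 9.43% against 18.8%. Between the control sets 6 passed, 11.3% of the 53 against 12.7% of all tested genes. The difference between the deletions passed for 1, *SULF2*. Of 19 further genes of the FGF family, not all of which encode secreted ligands, 17 did not reach the filter. *FGF13*, an intracellular member of the family, was at 10.2 FPKM ± 0.646 in the *VEGFA-LNC* controls and 14.2 ± 2.98 in their clones, and at 14.5 ± 0.0834 and 12.5 ± 1.17 in the *VEGFC-LNC* set. *FGF11* had the larger log2 FC upon both deletions, 0.58 (FDR = 0.516) and 0.79 (FDR = 0.349), on levels of 0.585 FPKM or less.

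Of the other receptors and coreceptors only *FGFRL1*, a receptor without the kinase domain, was tested, at log2 FCs of -0.25 (FDR = 0.684) and -0.59 (FDR = 0.302) upon *VEGFA-LNC* and *VEGFC-LNC* deletion. *FGFR2* stayed at or below 0.016 FPKM, and the Klotho coreceptors *KL* and *KLB* at or below 0.069 and 0.066 FPKM. *FGFBP3*, a carrier protein of FGFs, was at 0.337 FPKM ± 0.0629 in the *VEGFA-LNC* controls and 0.670 ± 0.141 in their clones (log2 FC 0.81, FDR = 0.124). In the *VEGFC-LNC* set it was at 0.530 ± 0.0502 in the controls and 0.263 ± 0.0321 in the clones (log2 FC -0.80, FDR = 0.166). All clones lay above their controls in the first set and below them in the second, and the effects differed by 1.61 (FDR = 0.0646), or by 1.52 without *VEGFA-LNC* clone 1 (FDR = 0.0490).

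Among the relatives of the Sprouty genes, *SPRY3* and *SPRED1*, *SPRED2* and *SPRED3* were all tested and none was called. *SPRY3* had a log2 FC of -0.67 (FDR = 0.431) upon *VEGFA-LNC* deletion, and *SPRED2*, an inhibitor of RAF activation, 0.59 (FDR = 0.213) upon *VEGFC-LNC* deletion. The ERK feedback and target genes had a higher mean in 10 of 13 cases upon *VEGFA-LNC* deletion, with a median log2 FC of 0.31 against -0.06 over all tested genes. Of the 13, 0 were called in limma or by voom, and 4 had an unadjusted p under 0.05 in limma, 30.8% against 19.8% of all tested genes. The largest values were those of the phosphatase genes *DUSP5* (0.74, FDR = 0.157) and *DUSP6* (0.70, FDR = 0.442), of the ETS factor gene *ETV1* (0.69, FDR = 0.213) and of *DUSP4* (0.65, FDR = 0.177). Without *VEGFA-LNC* clone 1, *DUSP5* passed (0.96, FDR = 0.0213). *CCND1*, the cyclin D1 gene, was at 191 FPKM ± 28.9 in the clones and 283 ± 11.4 in the controls (log2 FC -0.57, FDR = 0.0897). Upon *VEGFC-LNC* deletion 7 of the 13 were higher, with a median of 0.10.

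Of the adaptors 6 of 10 and of the RAS to ERK kinases 3 of 9 were higher upon *VEGFA-LNC* deletion, with medians of 0.05 and -0.13. The most changed were *GAB1*, a docking protein (1.02, FDR = 0.299), and *NRAS* (0.50, FDR = 0.0652), and upon *VEGFC-LNC* deletion *SHC1* (0.52, FDR = 0.460) and *MAPK3*, which encodes ERK1 (-0.49, FDR = 0.291). Of the heparan sulfate proteoglycans, *GPC1* changed most upon *VEGFA-LNC* deletion (0.65, FDR = 0.446) and *SDC3* upon *VEGFC-LNC* deletion (0.97, FDR = 0.378). None of these passed the threshold.

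*SULF2* encodes an enzyme that removes sulfate groups from heparan sulfate at the cell surface. The *VEGFA-LNC* controls had it at 0.377 and 0.415 FPKM and their clones at 0.0170 to 0.140 FPKM. The *VEGFC-LNC* controls had it at 0.0820 and 0.171 FPKM and their clones at 0.447 to 0.842 FPKM, so that neither deletion overlapped with its controls. All these levels are low, and the reads behind them are not given. Whether *SULF2* passed the filter only through the groups in which it was higher was not determined. The log2 FCs were -1.44 (FDR = 0.0904) and 1.76 (FDR = 0.0896), neither past the threshold, and the difference between them was -3.20 ± 0.56 (FDR = 0.0313, limma). This call was lost in 10 of 17 alternatives, among them any 1 control left out (FDR = 0.134 to 0.209), voom on recovered reads (FDR = 0.0510) and the replicate number as a block (FDR = 0.0596). Without *VEGFA-LNC* clone 1 the change upon *VEGFC-LNC* deletion passed as well (1.76, FDR = 0.0171).

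Between the control sets, 5 of the 6 pathway genes called were lower in the *VEGFC-LNC* controls. They were *FRS2*, the docking adaptor of FGF receptors, at 3.26 against 6.85 FPKM (log2 FC -1.05), *MAP2K1*, the kinase MEK1, at 21.3 against 43.6 FPKM (-1.03), *PHLDA1* at 20.25 against 44.9 FPKM (-1.15), *CCND1* at 177.5 against 283 FPKM (-0.67), and *HS6ST1*, a heparan sulfate sulfotransferase gene, at 3.98 against 7.65 FPKM (-0.92). *ETV1*, an ETS transcription factor gene, was higher, at 7.002 against 2.41 FPKM (1.5). In the clones, *FRS2* was at 4.33 to 5.45 FPKM upon *VEGFA-LNC* deletion, between the control sets, as *SPRY2* was. The most changed genes of the lists without a call there were *SPRY3* (-1.28, FDR = 0.101), *GPC1* (-1.5, FDR = 0.0662), *FGF11* (-0.54), *FGFBP3* (0.53) and *FGFRL1* (-0.28). All 6 calls were lost without any 1 of the 4 control libraries, and *CCND1* fell under an FC of 1.5 with median of ratios scaling (log2 FC -0.56).

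**Figure D4:**
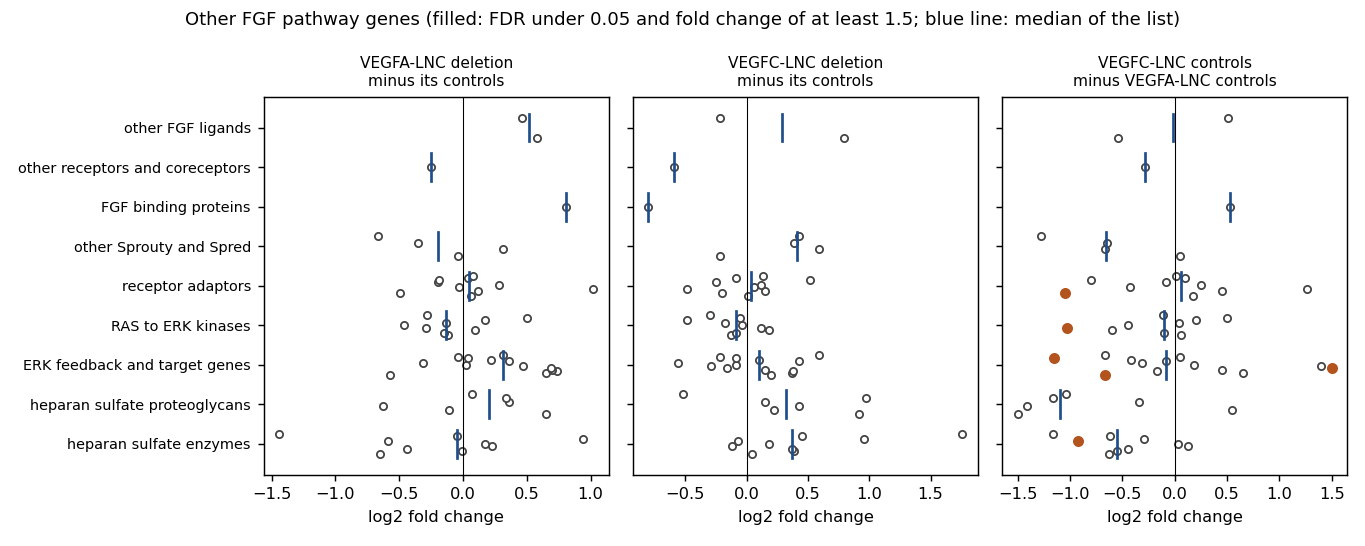
Log2 FC of the tested genes of 9 lists of other FGF pathway genes in 3 comparisons (x axes on the log2 scale, ranges differ between panels), with 1 point per gene, filled past the threshold, and a blue line at the median of each list. No point is filled for the deletions, and 6 genes are filled between the control sets, 5 lower and *ETV1* higher.

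The genes whose levels over the 10 libraries were most like those of *FGF1*, by Pearson correlation of log2 values and as a description only, were *PRR9* (r = 0.979), *HELQ* (r = 0.975) and *STRIP2* (r = 0.974), and 160 genes had an r over 0.9. *PRR9* had the same shape of means, 3.57 FPKM in the *VEGFA-LNC* controls and 0.0497, 0.0935 and 0.0243 FPKM in the *VEGFA-LNC* clones, the *VEGFC-LNC* controls and the *VEGFC-LNC* clones. For *FGF5* they were *TMEM241* (r = 0.965), *TMEM99* (r = 0.961) and *QSOX2* (r = 0.957), and 54 genes passed 0.9. For *SPRY2* they were *LINC02085* (r = 0.941), *BEND6* (r = 0.936) and *F3*, the tissue factor gene (r = 0.931), and 10 genes passed 0.9. Among the 7 tested genes, the highest values were those of *FGF2* with *FGF5* (r = 0.75), *FGF1* with *FGF2* (r = 0.71) and *FGF5* with *SPRY2* (r = 0.70), and the lowest that of *FGFR1* with *SPRY1* (r = -0.62). The points share the same 10 libraries and 4 groups.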

How the data were processed

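RNA-Seq had been carried out on EA.hy926 clones, 10 libraries in 4 groups taken from the labels. Expression was taken from a table deposited by the authors, which holds FPKM for 65572 RefSeq transcripts on hg19 with their lengths. The submitters' notes name Trim Galore 0.4.4, STAR 2.5.4b and featureCounts, and how the table itself was made is not given in the sources used here. FPKM multiplied by length gave whole reads, within the rounding of the table (0.001), for at least 99.9869% of the values checked in each library, and thus the depth, 6743971 to 24197622 reads. Intervals and floors (3 reads) cover counting error only.

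Genes with FPKM times length in kb of at least 1 in at least 2 libraries (13333) were fitted as log2(FPKM + 0.1) with limma 3.58.1 in R 4.3.3 (lmFit, eBayes with a trend, 4 groups, 6 residual degrees of freedom, 2.8 prior). FDRs follow Benjamini and Hochberg over these genes. Since the table holds FPKM, limma took the place of the count test in the study's methods. The procedure was also run on simulated data with independent libraries and the same spread in all groups. The real libraries differ in both respects, so that run does not vouch for the calls. Deviations of same-numbered clones of the 2 deletions correlated (r = 0.55, 0.41 and 0.22), which pairs them by number, while clones and controls, or controls of the 2 sets, did not (-0.04 to 0.05). SDs are over libraries of a group, and p-values measure only the spread between these libraries, which may be technical.

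The members and gene lists were chosen with earlier results of these data known. By rule, the text names all 9 members, called genes of 9 pathway lists (up to 4 per list and comparison, otherwise the most changed gene), called neighbors within 1 Mb (up to 4 per member), *NUDT6*, and the 3 genes most like each called member. *SPATA5*, *DUSP4*, *DUSP6*, *FGF13*, *HS2ST1* and the *VEGFA-LNC* values of *CCND1* and *ETV1* were added after their values were seen. Alternatives were another pseudocount (1), no filter, median of ratios scaling, voom on recovered reads, a replicate block, all 4 controls, averaged control pairs, the compared groups only, the longest transcript and leaving out each library. Windows upstream were read from GRCh37 with Python 3.11.15.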

Additional observations from a re-analysis of the deposited data

Results flagged for a closer look

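Members and tested pathway genes were picked out here when the effects of the 2 deletions differed by the test of that difference, or when all clones of one deletion lay above their controls and all clones of the other below. *SPRY2* met the second condition, with a difference of -1.37 on the log2 scale that was tested and did not pass (FDR = 0.126, limma). *FGFBP3* met it in the opposite sense, with a difference of 1.61 (FDR = 0.0646), also short of the threshold. The same opposition, without passing the test, was found for *CCND1* (-0.77, FDR = 0.127), *FGF13* (0.68, FDR = 0.204), *MAP2K1* (-0.41, FDR = 0.255) and *HS2ST1*, a heparan sulfate sulfotransferase gene (0.35, FDR = 0.273). *SULF2*, which was low in all groups, met both conditions, with a difference of -3.20 (FDR = 0.0313) that was lost in 10 of 17 alternatives. For 15.3% of all tested genes every *VEGFA-LNC* clone lay above its controls, and for 23.7% every one lay below. For *VEGFC-LNC* these shares were 17.2% and 30.6%. The share of all tested genes with opposite directions in the 2 deletions was not counted, so the opposition is not shown to be particular to the genes named.

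In *SPRY2*, *FGFBP3* and *SULF2*, and likewise in *CCND1*, *FGF13*, *MAP2K1* and *HS2ST1*, each set of clones differed from its controls in the direction of the other control set. The mean of *SPRY2* was 20.6 FPKM in the *VEGFA-LNC* and 7.96 FPKM in the *VEGFC-LNC* controls, that of *FGFBP3* was 0.337 and 0.530 FPKM, and that of *SULF2* was 0.396 and 0.127 FPKM. In the same order, *CCND1* was at 283 and 177.5 FPKM, *FGF13* at 10.2 and 14.5, *MAP2K1* at 43.6 and 21.3, and *HS2ST1* at 11.9 and 13.1. The part of this difference between the controls in the results was not tested. Groups held 2 or 3 libraries, too few to look for single libraries far from the rest.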

How the results depend on the processing

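Of 511 recomputed effects of the 7 tested members, 471 kept their direction and side of the threshold, 27 lost and 7 gained a call, and 6 changed sign. Upon *VEGFA-LNC* deletion the 1 called member became 0 against all 4 controls, with control pairs averaged and with the compared groups only, and 0 to 2 with 1 library left out. Between the control sets the 3 called members became 0 with averaged pairs, 1 without the filter and 0 to 4 with 1 library left out. For the difference between the deletions the count of 0 became 1 (*FGF1*) with a pseudocount of 1 or no filter, and 0 to 1 with 1 library left out. Upon *VEGFC-LNC* deletion it was 0 in each setting. Against all 4 controls the log2 FC changed sign for *FGF5* (0.12), *SPRY2* (0.11) and *NUDT6* (0.15) upon *VEGFA-LNC* deletion and for *FGF5* (-0.10), *SPRY4* (-0.10) and *NUDT6* (-0.27) upon *VEGFC-LNC* deletion. Leaving out 1 library gave -0.19 to 0.12 for *SPRY4* (-0.03 without *VEGFC-LNC* control 1, -0.19 without clone 1) and -0.29 to 0.41 for *NUDT6* upon *VEGFC-LNC* deletion, and -0.67 to 0.17 for *SPATA5* upon *VEGFA-LNC* deletion. The cause was not tested. Averaging the control pairs leaves fewer samples. Comparisons between control sets and between deletions have no value against all 4 controls, and the latter none in the compared groups only.

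Over all tested genes, calls ranged from 0 to 1732 upon *VEGFA-LNC* deletion (367 as reported, 0 with averaged pairs, 20 with the compared groups only, 29 against all 4 controls, 551 by voom, 616 without the filter), from 1 to 1158 upon *VEGFC-LNC* deletion (63, 1 with averaged pairs, 26 with the compared groups only), from 0 to 4401 between the control sets (1690, 0 with averaged pairs, 4401 with the compared groups only) and from 0 to 694 for the difference (194, 0 with averaged pairs, 452 without the filter). The highest counts with 1 library left out, 1732, 1158, 3068 and 694, were those without *VEGFA-LNC* clone 1. Pathway genes called between the control sets (6) ranged from 0 to 21, and without *VEGFA-LNC* clone 1 there were 6 upon *VEGFA-LNC* deletion, 1 upon *VEGFC-LNC* deletion and 3 for the difference.

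With the replicate number as a block, 1, 0, 2 and 0 members were called upon *VEGFA-LNC* deletion, upon *VEGFC-LNC* deletion, between the control sets and for the difference. Over all tested genes the block gave 151 calls upon *VEGFA-LNC* deletion, 20 upon *VEGFC-LNC* deletion and 86 for the difference. *FGF5* was the member lost between the control sets (FDR = 0.0567), *SULF2* lost its difference between the deletions, and the block changed no other call of a member or named gene. Depth limits *FGF1*, *SPRY1*, *FGFR3* and *FGFR4*, which had 72 reads or fewer in each library. Of the pathway genes named, *SULF2*, *FGFBP3*, *SPRY3* and *FGF11* were also low, with highest levels of 0.842, 0.762, 0.709 and 0.585 FPKM. Their reads are not given.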
